A study of Mus musculus with 12 samples.

Results

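The T cell receptor of a CD8+ T cell is a pair of chains, alpha and beta, and each chain is encoded by gene segments that are cut and joined in the thymus. An alpha chain joins a V segment (Trav) to a J segment (Traj), a beta chain joins a V (Trbv), a D (Trbd) and a J segment (Trbj), and RNA splicing then attaches the constant region (Trac, or Trbc1 or Trbc2). Most alpha beta T cells carry a single productive beta chain, so the V segments read in a culture show how varied the receptors of its cells are. Gamma delta T cells build their receptor from the Trg and Trd segments instead. The J segments that lie between the joined J and the constant region stay in the primary transcript as part of an intron and are removed by splicing.

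The segments described here are all rows whose biotype in the deposited tables is a T cell receptor V, D, J or C gene and whose FPKM was above 0 in at least 1 library. FPKM is the number of fragments on a gene scaled by the gene's length and the library's size. Of 226 such rows 212 were members, out of 29700 genes above 0 in a library. By locus 150 members were Tra, 39 Trb, 9 Trd and 14 Trg, and by type 132 were V, 3 D, 69 J and 8 C segments. The 14 segments at 0 in every library were 12 Trav copies, Trdd1 and Trgj3. In all 166 members had a mean FPKM of at least 1 and were tested, 113 of Tra, 38 of Trb, 6 of Trd and 9 of Trg. The other 46 had lower means, and 8 of the 212 had at most 3 reads over all 12 libraries together.

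The libraries came from activated primary CD8+ T cells of wild-type mice, purified from spleen and lymph nodes with magnetic beads. They were given a self-delivering siRNA, either a non-targeting control (siNTC) or one against Creb1 (siCreb1, labelled Creb1 KD), and then DMSO or trans-vaccenic acid (TVA, a fatty acid of dairy and beef fat) for 24 hours. The 4 groups, siNTC, siNTC plus TVA, siCreb1 and siCreb1 plus TVA, had 3 libraries each, and the groups without TVA received DMSO. Nothing in the labels ties a library to a mouse, so p-values measure the spread between these libraries, which may be technical.

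Whole reads could be recovered from the deposited FPKM, between 16660234 and 24602484 per library. All 6 siCreb1 libraries, from 20760297 reads up, were deeper than the 6 siNTC libraries, which had up to 20758033. Receptor segments took 41439 to 58627 of the reads of a library (0.238 to 0.275%), spread over 178 to 187 members per library. Creb1 was between 10.3 and 12.4 FPKM in the 6 siNTC libraries and between 1.17 and 1.81 in the 6 siCreb1 libraries. Of the fixed markers Cd8a and Cd8b1 were at or above 416 FPKM in every library and Cd4 was at or below 1.75. The B cell markers Ms4a1 and Pax5 were at or below 0.294 FPKM, although Ighm, the heavy chain constant region of IgM, was between 289 and 349 FPKM. Rag2, part of the enzyme pair that cuts receptor loci, had 0 reads in every library, a count that allows up to 0.122 to 0.180 RPM (reads on a gene scaled to a fixed total of recovered reads per library) for counting error alone, and Rag1 and Ptcra had at most 1 read per library. Dntt, which adds bases at the joins, was between 4.59 and 7.12 FPKM.

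The beta V segments with the lowest adjusted p after knockdown are shown first, with Trbv13-1, which was not called, for comparison with the other Trbv13. Each V sequence is its last 45 bases on the plus strand of GRCm38, where capitals mark the codon of the conserved cysteine that opens the hypervariable loop CDR3. Trbv13-2 ends at chr6:41121788-41121832, Trbv13-3 at chr6:41130541-41130585, Trbv12-2 at chr6:41119320-41119364, Trbv16 at chr6:41152186-41152230 and Trbv17 at chr6:41163512-41163556.
Trbv13-2: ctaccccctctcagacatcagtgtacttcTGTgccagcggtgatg
Trbv13-3: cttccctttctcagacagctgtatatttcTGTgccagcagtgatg
Trbv13-1: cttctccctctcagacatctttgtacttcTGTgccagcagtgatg
Trbv12-2: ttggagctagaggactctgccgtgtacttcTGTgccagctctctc
Trbv16: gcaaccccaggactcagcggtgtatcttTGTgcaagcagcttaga
Trbv17: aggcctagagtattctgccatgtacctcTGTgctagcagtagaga

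Of the 8 J segments that were called after knockdown 5 follow whole as examples, with the codons of the F-G-X-G motif, which closes the CDR3, in capitals. Traj5 lies at chr14:54213777-54213838, Traj21 at chr14:54198790-54198846, Traj23 at chr14:54196081-54196140, Trbj2-3 at chr6:41543223-41543271 and Trbj2-5 at chr6:41543453-41543501.
Traj5: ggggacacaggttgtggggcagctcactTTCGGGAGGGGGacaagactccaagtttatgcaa
Traj21: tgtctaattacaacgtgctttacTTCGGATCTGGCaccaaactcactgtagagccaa
Traj23: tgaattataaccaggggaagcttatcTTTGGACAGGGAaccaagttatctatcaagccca
Trbj2-3: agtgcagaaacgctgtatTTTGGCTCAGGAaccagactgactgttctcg
Trbj2-5: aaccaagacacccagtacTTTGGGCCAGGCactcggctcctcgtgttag

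All 212 members matched a GENCODE vM21 transcript, from which these sequences were taken. The cysteine codon was found in the last 45 bases of 127 of the 132 V members. The F-G-X-G codons were found in 55 of the 69 J members, 42 of 51 Traj, 11 of 13 Trbj, 2 of 2 Trdj and 0 of 3 Trgj. A motif that was not found says only that these letters are not in the annotated segment.

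How far a read can be assigned to 1 segment differs between the loci. All 22 Trbv members had at least 98.8% of their 50-base windows unique among the annotated receptor segments and pseudogenes, and 19 were unique throughout. Of the 98 Trav members only 8 were unique throughout, 56 had fewer than 50% unique windows, 28 had none and 22 were identical to another segment. Those 56 held 36.3% of Trav reads. Trav levels of single copies are therefore uncertain, and Trbc1 and Trbc2 are too in part, since 41.1% of the windows of Trbc1 occur in Trbc2 and 44.0% of those of Trbc2 in Trbc1. The counting program and its treatment of shared reads are not given in the sources used here.

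In every library the receptor reads were spread over many segments, and none dominated. Reads fell on 21 to 22 Trbv, 77 to 83 Trav and 40 to 45 Traj segments per library. The effective number of segments, the exponential of the Shannon entropy of the shares and so the number of equally used segments that would give the same evenness, was 15.6 to 16.3 for Trbv, 49.5 to 53.6 for Trav and 24.1 to 32.0 for Traj. With Trav segments added up by family it was 13.2 to 14 over 19 to 22 families with reads. The most used Trav segment of a library held 5.12 to 6.39% of its Trav reads. Reads on a joined J segment and on a J segment left in an unspliced transcript were not told apart. The Traj number therefore describes the spread of reads and need not reflect receptor variety.

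On the beta chain Trbv13-2 led with a mean of 142 FPKM over the 12 libraries. Trbv12-2 held 9.16% of Trbv reads, Trbv16 9.02%, Trbv12-1 8.85% and Trbv3 6.65%. Trbv12-1 is the V segment of the OT-I receptor, a transgenic receptor in wide use, and its share was similar to that of its neighbours in the order. At the other end Trbv21 had 0 to 10 reads per library. Among the J segments Trbj1-5 and Trbj2-7 held 14% of Trbj reads each, Trbj1-4 10.7%, Trbj1-3 10.6% and Trbj1-2 9.25%. The Trbj1 cluster, which lies upstream of Trbc1, took 58.2 to 64.5% of Trbj reads.

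**Figure D1:**
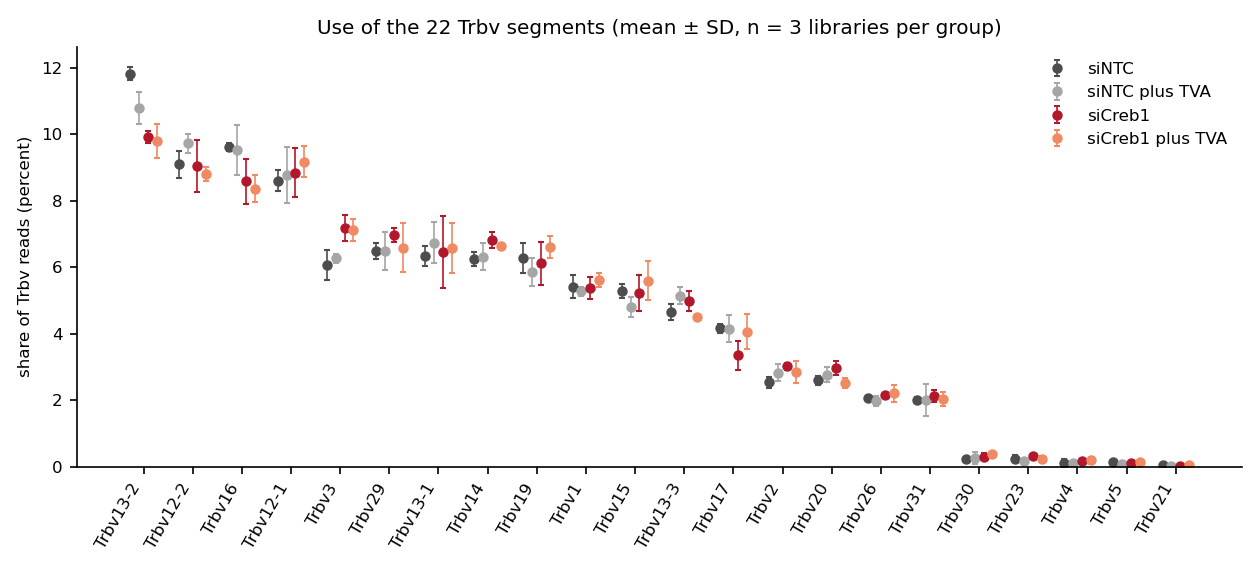
Share of all Trbv reads (y axis, percent) taken by each of the 22 Trbv segments (x axis, ordered by mean share), as the mean and SD of 3 libraries for each of the 4 groups. Trbv13-2 is the most used segment in every group, with a mean of 11.8% with siNTC alone, 10.8% with siNTC plus TVA, 9.91% in siCreb1 and 9.79% in siCreb1 plus TVA, and 5 segments stay near 0.

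On the alpha chain the most read segments were Trav16n with 5.53% of Trav reads, Trav3-3 with 4.50%, Trav13-1 and Trav16 with 4.36% each and Trav12-2 with 4.17%. By family Trav14, which holds the OT-I alpha V segment, led with 13.1% over its 9 segments and ranged from 10.9 to 15.2% between libraries. Trav16 followed with 11.4%, Trav9 with 9.82%, Trav7 with 9.74% and Trav13 with 9.15%. Among the J segments Traj2 held 10.6% of Traj reads, Traj3 8.54%, Traj4 6.35%, Traj6 5.95% and Traj7 5.72%, and all 5 lie at the end of the array next to Trac.

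The segments of the semi-invariant receptors had few reads, and the J segments among them were near the level of neighbouring Traj. Trav11, the V segment of invariant NKT cells, had 3 reads in siNTC replicate 2 and 0 in each of the other 11 libraries. It has no unique window, and 99.7% of its windows occur in Trav11d, which had 0 to 4 reads. The 2 copies together had 5 reads in siNTC replicate 2 and fewer in every other library. Traj18, the partner segment of Trav11 in these cells, had 3 to 20 reads and a mean of 7.50 FPKM, beside 8.97 for Traj17 and 8.21 for Traj19. Trav1 and Traj33, which MAIT cells join, had 4 to 20 and 0 to 18 reads. The mean of Traj33, 4.80 FPKM, lay between those of Traj32 (6.36) and Traj34 (3.61). Zbtb16, the transcription factor of both cell types, was at or below 0.457 FPKM.

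Gamma and delta segments were read in every library at low levels. The constant region Trdc was between 4.55 and 5.56 FPKM, Tcrg-C1 between 11.4 and 18.6, Tcrg-C2 between 20.3 and 27.1 and Tcrg-C4 between 8.04 and 11.5, while Tcrg-C3 had 1 to 12 reads. The delta V segments were close to the detection limit, with 8 to 35 reads for Trdv1, 8 to 26 for Trdv5 and 3 to 14 for Trdv2-2. Among the gamma V segments Trgv2 had 109 to 214 reads, Tcrg-V1 24 to 85 and Tcrg-V4 13 to 55, and among the gamma J segments Trgj1 had 10 to 26 and Trgj4 5 to 16. Beside these, the gamma delta marker list summed to between 2.22 and 3.15 FPKM, with Cd163l1 at 1.11 to 1.65 and Sox13 at or below 0.174. Its part in these levels was not tested. Neither Trdc nor Tcrg-C1, Tcrg-C2 or Tcrg-C4 passed the test in any of the 5 comparisons, and Tcrg-C3 was too low to be tested.

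The first comparison asks what knockdown of Creb1 did to the receptor segments in the absence of TVA. In siCreb1 libraries 5 beta chain V segments and the constant regions of both chains fell, and 3 alpha chain J segments rose. Of the 166 members tested 13 passed an adjusted p of 0.05 (limma on log2(FPKM + 1), Benjamini-Hochberg adjustment over 11550 genes), which is 7.83% against 13.7% of all genes tested. A share below the background makes the number of calls no result about the receptor segments as a set, and what follows describes which of them moved. Of the 13, 10 fell, where 7.21% of all genes did, and 3 rose, where 6.52% did. The FPKM ranges of the 2 groups did not overlap for 16 lower and 8 higher members, 9.64 and 4.82% of those tested, against 16.0 and 15.5% of all genes.

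The 10 members that fell were 5 of the 21 Trbv tested, both beta constant regions, Trac, and 2 Trav. Trbv13-2 was 177, 168 and 176 FPKM in the siNTC libraries and 123, 128 and 122 in the siCreb1 libraries. The groups were far apart, and the log2 fold change was −0.48 (SE 0.05, adjusted p = 0.00019, limma). Trbv16 went from 125, 115 and 121 to 84.0, 99.8 and 91.6 FPKM, again without overlap (−0.39, SE 0.07, adjusted p = 0.00495). Trbv17 was 55.4, 53.6 and 57.3 in siNTC and 32.6, 39.4 and 42.5 in siCreb1, a log2 fold change of −0.54 (SE 0.11, adjusted p = 0.00897).

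Trbv12-2 was 116, 116 and 121 FPKM in siNTC against 109, 96.4 and 94.0 in siCreb1 (−0.24, SE 0.05, adjusted p = 0.0113). Trbv1, which lies upstream of the other V segments of the locus, was 65.7, 59.6 and 69.3 against 53.3, 52.7 and 58.5 (−0.24, SE 0.05, adjusted p = 0.0176). The groups stood apart in both, the second by a narrow margin. Over all 21 Trbv tested the median log2 fold change was −0.17 and 16 were below 0, where all genes tested had a median of −0.0011 and 49.6% above 0.

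The constant regions fell by less than the 5 Trbv called, although both Trbc fell slightly more than the median Trbv tested (−0.17). Trbc1 was 662, 720 and 673 FPKM in siNTC and 597, 602 and 593 in siCreb1 (−0.20, SE 0.03, adjusted p = 0.00224, limma). Trbc2, with 1311, 1298 and 1329 against 1150, 1168 and 1138, changed by −0.19 (SE 0.05, adjusted p = 0.0395), and its call was lost in 8 of the 12 fits that left out 1 library (adjusted p up to 0.106) and with quantile normalization, TPM scaling, all genes above 0 or no trend (up to 0.224). Trac was 529, 532 and 536 against 506, 495 and 512, a log2 fold change of −0.08 (SE 0.02, adjusted p = 0.0368) that was lost in 8 of those fits and was 0.000917 after quantile normalization.

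The same comparison moved other parts of the receptor complex. Of the 6 receptor partners, 4 fell, Cd3d, Cd3g, Cd247 and Cd8b1, by 0.15, 0.13, 0.15 and 0.16 on the log2 scale, and Cd8a rose by 0.09. Their summed level was 1884 to 1898 FPKM in siNTC and 1772 to 1797 in siCreb1. Ighm fell as well (−0.22, adjusted p = 0.000502), and the B cell list, mostly Ighm, summed to 355 to 361 FPKM in siNTC and 301 to 318 in siCreb1. Dntt fell by 0.33 (adjusted p = 0.0244). The part of these genes in the result was not tested. In bulk RNA fewer cells of a type and less RNA per cell cannot be told apart.

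The 3 members that rose were all Traj. Traj5 had 14, 15 and 10 reads with siNTC and 43, 27 and 39 with siCreb1. In FPKM these were 11.3, 13.9 and 7.78 against 33.2, 19.5 and 28.5, a log2 fold change of 1.23 (SE 0.23, adjusted p = 0.00719, limma). Traj21 had 4, 5 and 5 reads against 11, 10 and 13 (0.95, SE 0.20, adjusted p = 0.0120), and Traj23 had 1, 3 and 2 against 4, 19 and 16 (1.83, SE 0.47, adjusted p = 0.0270).

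These rises rest on few reads, although the reads of the groups, not scaled to depth, did not overlap for any of the 3. The call of Traj21 was lost with the precision weights of limma-voom on the recovered reads (adjusted p = 0.195). That of Traj23 was lost without siNTC replicate 1 or 3 or siCreb1 replicate 2 or 3, with adjusted p-values from 0.0647 to 0.0937. Across the 45 Traj tested the median log2 fold change was 0.39 and 36 were above 0. Traj16 had the largest rise of all members after knockdown without TVA, 1.95, but did not pass (adjusted p = 0.0828).

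The 2 Trav called were Trav9n-3 and Trav17. Trav9n-3 had 87, 55 and 46 reads with siNTC and 0, 1 and 3 with siCreb1 (log2 fold change −2.56, SE 0.50, adjusted p = 0.00861). It has no window of its own, being identical to Trav9d-3, and its reads in the other groups are given with those of the other copies. Trav17, whose sequence is unique, was 6.32, 6.41 and 6.65 FPKM against 4.63, 2.23 and 2.65 (−0.88, SE 0.25, adjusted p = 0.0427), a call lost in 9 of the 12 fits that left out 1 library. Over 67 Trav the median was −0.03, with 35 below 0, and it was 0.0012 with values scaled to TPM.

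Of the 13 calls, those of Trbv13-2, Trbv16, Trbv17, Trbc1, Traj5 and Trav9n-3 held in each of the 12 fits that left out 1 library and in every alternative in which they were tested. Those of Trbv12-2 and Traj21 held in the 12 fits but not in every alternative. Trbv1 lost its call without siNTC replicate 1 or 3 or siCreb1 replicate 1 or 2 (adjusted p from 0.0519 to 0.0638).

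With TVA present the same question compares siCreb1 plus TVA with siNTC plus TVA. Again 5 Trbv fell, of which Trbv13-2, Trbv12-2 and Trbv16 were called without TVA too, and J segments of both chains rose. Of the 166 members tested 15 passed, 9.04% against 10.1% of all genes tested. Again the share did not exceed the background. Of the 15, 8 fell, against 5.51% of all genes, and 7 rose, against 4.64%. Without overlap between the groups were 15 lower and 18 higher members, 9.04 and 10.8%, where all genes had 17.6 and 14.3%.

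Trbv13-3 had the lowest adjusted p. It was 71.3, 69.8 and 77.2 FPKM in siNTC plus TVA and 55.0, 53.8 and 56.1 in siCreb1 plus TVA (−0.40, SE 0.05, adjusted p = 0.00105, limma). Trbv13-2 was 145, 153 and 159 against 119, 112 and 127 (−0.35, SE 0.05, adjusted p = 0.00222), Trbv12-2 was 124, 117 and 124 against 92.3, 95.9 and 96.1 (−0.35, SE 0.05, adjusted p = 0.00298). Trbv16 was 123, 116 and 106 against 91.7, 83.2 and 86.2 (−0.40, SE 0.07, adjusted p = 0.00697).

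None of these 4 overlapped between the groups, and each kept its call in the 12 fits that left out 1 library and in every alternative. Trbv20 was 35.9, 42.2 and 40.8 FPKM against 28.9, 32.0 and 32.6 (−0.34, SE 0.07, adjusted p = 0.0186), a call lost without siNTC plus TVA replicate 2 or 3 or siCreb1 plus TVA replicate 1. The median over the 21 Trbv tested was −0.14, with 16 below 0, and all genes tested had a median of −0.012 and 46.0% above 0. The siCreb1 comparisons with and without TVA share no library, but they come from the same fit and use the same estimate of the spread of each gene. Their p-values are therefore not independent.

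Trbc1 was 638, 649 and 642 FPKM against 581, 576 and 598 (−0.14, SE 0.03, adjusted p = 0.0179), and the groups stood apart. Its call was lost without siNTC plus TVA replicate 2 or siCreb1 plus TVA replicate 1 or 2, and with quantile or TPM scaling (adjusted p up to 0.285). Trac was 521, 503 and 500 against 475, 483 and 478, a log2 fold change of −0.08 (SE 0.02, adjusted p = 0.0311) that was lost in 5 of the 12 fits and was −0.0078 after quantile normalization. Trbc2 did not pass, with 1221, 1063 and 1185 against 1091, 1017 and 1156, and its groups overlapped.

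Among the beta J segments 3 rose. Trbj2-5 was 38.7, 44.2 and 36.1 FPKM in siNTC plus TVA and 65.5, 58.7 and 57.3 in siCreb1 plus TVA (0.60, SE 0.12, adjusted p = 0.0140, limma). Trbj1-3 was 110, 107 and 111 against 144, 162 and 174 (0.54, SE 0.11, adjusted p = 0.0146). Trbj2-3 was 71.8, 73.6 and 58.2 against 95.3, 88.9 and 92.4 (0.44, SE 0.11, adjusted p = 0.0295). In none of the 3 did the groups overlap, and 10 of the 13 Trbj tested were above 0 with a median of 0.31. None of the 3 was called without TVA. Their mean log2 levels in siNTC and siCreb1 were 5.75 and 5.88 for Trbj2-5, 7.10 and 7.09 for Trbj1-3 and 6.22 and 6.56 for Trbj2-3. In siNTC cells TVA changed them by −0.41, −0.32 and −0.12 in that order, and none was called. The call of Trbj2-5 was lost without siCreb1 plus TVA replicate 1, that of Trbj1-3 without replicate 2 or 3 of that group, and that of Trbj2-3 without any library of that group or without siNTC plus TVA replicate 3 (adjusted p from 0.0506 to 0.0902). With limma-voom neither Trbj2-5 (adjusted p = 0.0905) nor Trbj2-3 passed, and Trbj2-3 also failed with all genes above 0 tested (adjusted p = 0.0871).

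Of the alpha J segments Traj5, called in the first comparison too, had 15, 15 and 11 reads against 31, 36 and 31 (0.85, SE 0.23, adjusted p = 0.0447). Traj39 had 2, 3 and 2 reads against 8, 7 and 9 (1.08, SE 0.22, adjusted p = 0.0146) and Traj2 had 32, 35 and 28 against 78, 91 and 54 (0.82, SE 0.23, adjusted p = 0.0464). The groups did not overlap in any of them. The calls of Traj5 and Traj2 were lost in 8 of the 12 fits that left out 1 library, and that of Traj39 in 2 of them and with limma-voom. The median over the 45 Traj tested was 0.28, with 27 above 0.

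Among the Trav, Trav10 was 7.20, 7.70 and 8.72 FPKM against 5.75, 5.32 and 5.24 (−0.46, SE 0.09, adjusted p = 0.0127). Trav7-4 was 4.56, 5.60 and 6.87 against 8.04, 8.77 and 8.43 (0.51, SE 0.13, adjusted p = 0.0329). Without TVA the knockdown changed Trav10 by −0.18 and Trav7-4 by −0.22, and neither was called. Only 39.8% of the windows of Trav10 and 24.9% of those of Trav7-4 are unique, and 75.1% of the windows of Trav7-4 occur in Trav7d-4. Both calls were lost with limma-voom, and that of Trav7-4 also in 5 of the 12 fits that left out 1 library. Of the receptor partners 3 fell and 1 rose with TVA present. The B cell list, mostly Ighm, summed to 322 to 333 FPKM in siNTC plus TVA and 301 to 308 in siCreb1 plus TVA. Ighm fell (−0.11, adjusted p = 0.0186), while Cd79a and Cd79b of that list changed by 0.42 and 0.19 and were not called. The myeloid list summed to 8.02 to 8.24 against 11.1 to 12.4 FPKM, where Lyz2 rose (0.40, adjusted p = 0.0478). The part of these lists in the result was not tested.

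**Figure D2:**
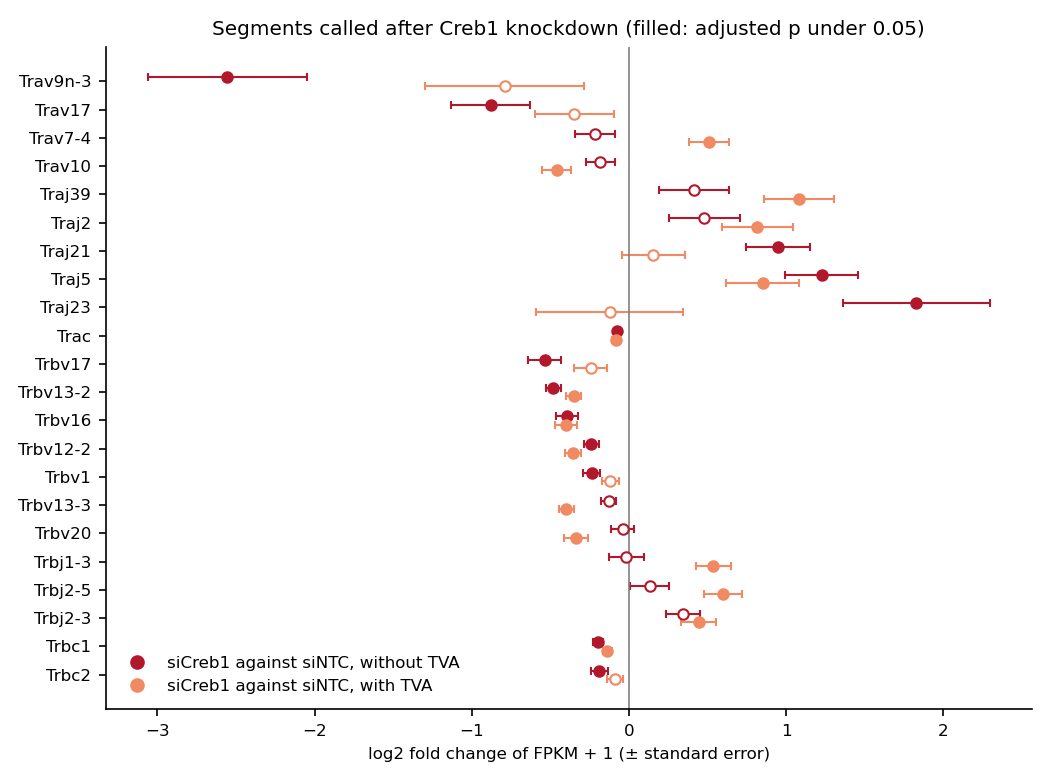
Log2 fold change of FPKM + 1 between siCreb1 and siNTC libraries (x axis, points with standard errors, 3 against 3 libraries) for each segment called in either comparison (y axis), without TVA in dark red and with TVA in orange, with filled points where the adjusted p is under 0.05. The Trbv and constant region points lie left of 0 in both comparisons, Trbv13-2 at −0.48 and −0.35, and the filled Traj and Trbj points lie right of it, Traj5 at 1.23 and 0.85.

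Sums over the segments put these calls in proportion. They are given in RPM, with no test, since the sums were formed over chosen members. In siNTC libraries all receptor segments together came to 2713, 2720 and 2755, in siNTC plus TVA libraries to 2602, 2487 and 2576, in siCreb1 libraries to 2483, 2515 and 2487, and in siCreb1 plus TVA libraries to 2435, 2383 and 2486. The siNTC libraries stood above the other 9. Trbv reads followed the siRNA, at 479 to 510 RPM in the 6 siNTC libraries and 417 to 433 in the 6 siCreb1 libraries, a ratio of 0.870.

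Traj reads went the other way. They were 19.3, 19.2 and 21.2 RPM with siNTC alone, 18.7, 21.2 and 17.5 with siNTC plus TVA, 26.9, 25.3 and 30.4 in siCreb1 and 27.2, 24.3 and 24.3 in siCreb1 plus TVA. The 6 siCreb1 libraries lay above the 6 siNTC libraries without overlap, with a ratio of the means of 1.35. Per 100 Trac reads there were 4.03 Traj reads in siNTC (3.72 to 4.53 over 6 libraries) and 5.68 in siCreb1 (5.30 to 6.31). Trbj reads per 100 Trbc reads also separated, at 4.36 to 5.19 in siNTC and 5.38 to 6.57 in siCreb1, although Trbj RPM overlapped. Trav RPM overlapped as well, at 146 to 165 against 151 to 159. Trbv reads per 100 Trbc reads overlapped too, at 33.6 to 39.3 in siNTC and 33.7 to 36.2 in siCreb1. Trbc RPM itself had a ratio of siCreb1 to siNTC of 0.913, with overlap, so the lower Trbv RPM was not particular to V segments.

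**Figure D3:**
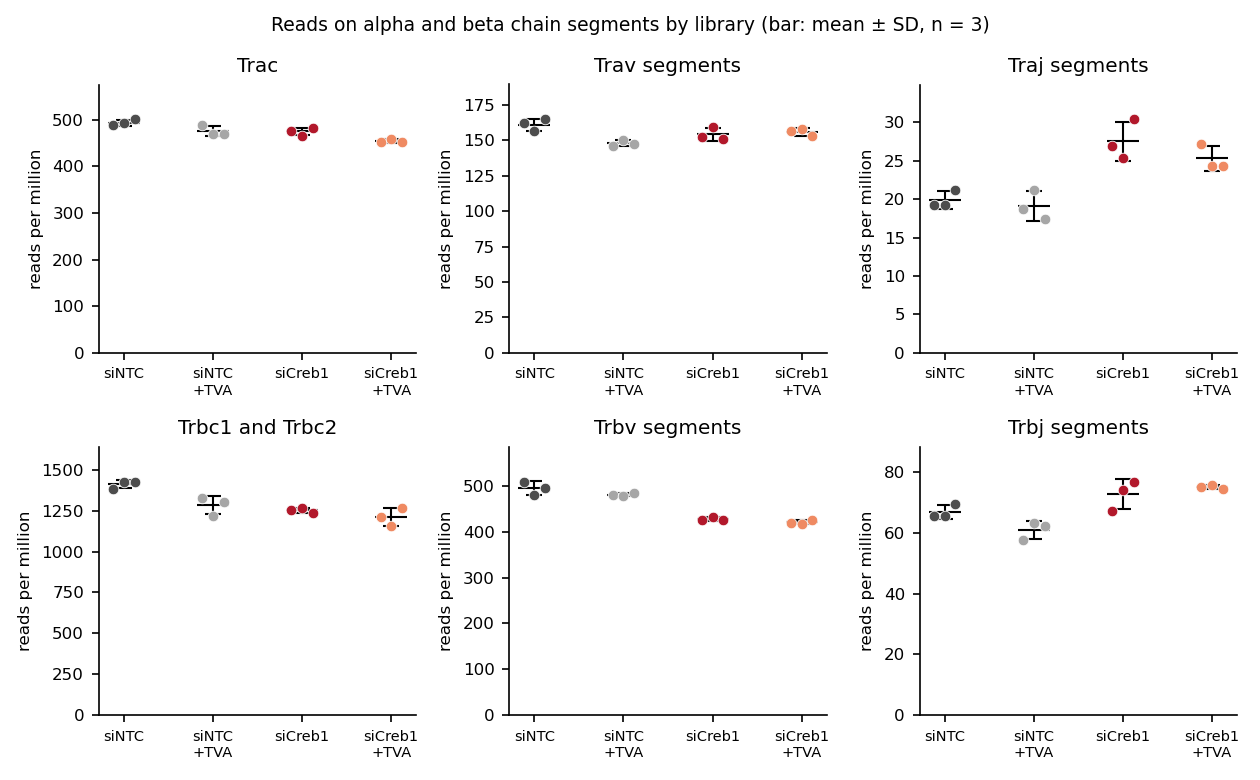
RPM of recovered reads (y axis) on Trac, Trav, Traj, Trbc, Trbv and Trbj segments in each of the 12 libraries (points), with the mean and SD of 3 libraries per group (bars). Trbv is lower and Traj higher in all 6 siCreb1 libraries than in all 6 siNTC libraries, while Trav overlaps between them.

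Within Traj the level followed the place in the array. The 51 Traj members lie 2.62 to 64.3 kb upstream of Trac, and the mean FPKM fell with distance (Spearman's rho −0.94 across the 51 segments, which share libraries and depth and are not independent). The 6 members within 10 kb of Trac held 42.2% of Traj reads, the 14 between 10 and 25 kb 32.6%, the 17 between 25 and 45 kb 20.7% and the 14 beyond 4.55%. The ratio of siCreb1 to siNTC RPM, 6 libraries against 6, was 1.41, 1.44, 1.31 and 0.711 in these 4 stretches. In the last stretch the values overlapped, at 0.813 to 1.68 RPM in siNTC and 0.413 to 1.40 in siCreb1.

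**Figure D4:**
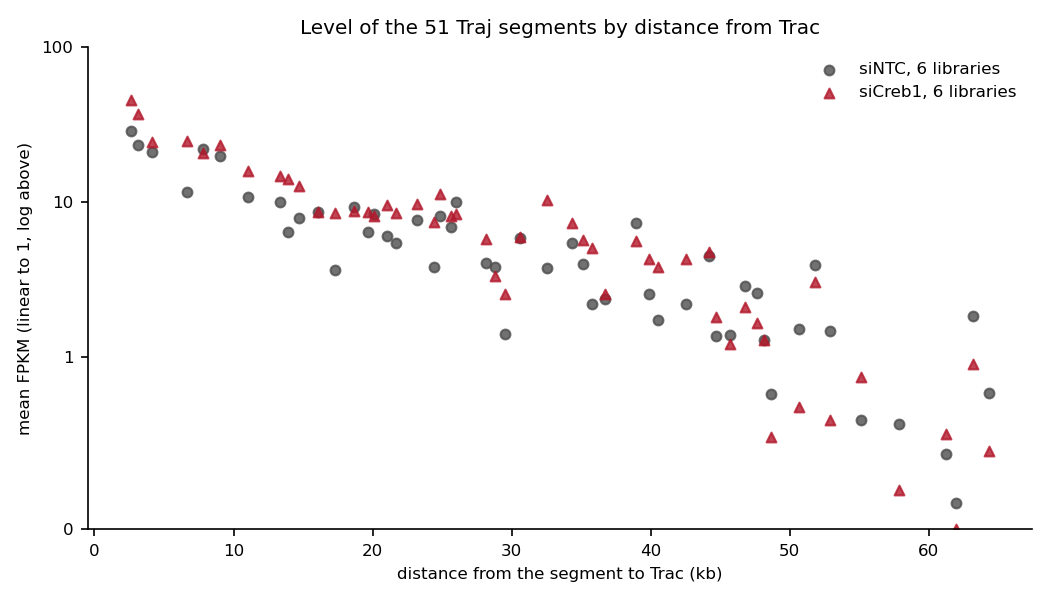
Mean FPKM (y axis, linear up to 1 and logarithmic above) of each of the 51 Traj members against its distance from Trac (x axis, kb), with the 6 siNTC libraries as grey circles and the 6 siCreb1 libraries as red triangles. Levels drop with distance in both, and most siCreb1 points within 25 kb lie above the siNTC point of the same segment.

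The next comparison asks what TVA did in siNTC cells. Of the 166 members tested 3 passed, all lower, which is 1.81% against 7.38% of all genes in either direction and 2.88% lower. At an unadjusted p under 0.05 there were 24, 14.5% against 20.9% of all genes. Trbv13-2 was 177, 168 and 176 FPKM without TVA and 145, 153 and 159 with it (−0.19, SE 0.05, adjusted p = 0.0387, limma). Trav7-4 was 8.33, 9.30 and 7.81 against 4.56, 5.60 and 6.87 (−0.52, SE 0.13, adjusted p = 0.0361). Neither overlapped, but their calls were lost in 8 and 9 of the 12 fits that left out 1 library (adjusted p up to 0.121). They were also lost in 8 and 4 of the 10 alternatives, with adjusted p-values up to 0.154 and 0.272. The B cell list, mostly Ighm, summed to 355 to 361 FPKM in siNTC and 322 to 333 in siNTC plus TVA. Ighm fell (−0.13, adjusted p = 0.00915), and the part of this list in these falls was not tested.

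The third was Trdj1, a delta J segment, with 3, 2 and 5 reads without TVA and 0, 0 and 1 with TVA (−1.74, SE 0.33, adjusted p = 0.00985). On so few reads the call was lost with limma-voom (adjusted p = 0.143). The members with the largest falls were Trav6n-7 (−2.61), Trdj1 and Traj22 (−1.18), and those with the largest rises were Traj37 and Traj23 (1.31 each) and Traj42 (1.14). Apart from Trdj1 none of these passed. Over the 67 Trav tested the median was −0.14 and 47 were below 0, beside −0.0056 and 47.7% above 0 for all genes.

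In siCreb1 cells TVA gave no call among the 166 members, where 0.537% of all genes tested passed, and limma-voom gave 0 too. At an unadjusted p under 0.05 there were 9 members, 5.42% against 9.58% of all genes. Traj39 had the lowest adjusted p, 0.103, with 2, 4 and 3 reads in siCreb1 and 8, 7 and 9 in siCreb1 plus TVA and a log2 fold change of 1.02. The largest falls were those of Traj28 (−1.69), Traj43 (−1.47) and Trav6n-7 (−1.20), and the largest rises those of Trav9n-3 (1.62), Trav6-6 (1.20) and Traj29 (1.09). Here too the values were not past the threshold.

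Whether the TVA difference itself differed between siCreb1 and siNTC cells was tested as an interaction. No member passed, against 2.24% of all genes tested, and 13 had an unadjusted p under 0.05, 7.83% against 14.3%. Trbv13-3 (−0.27, adjusted p = 0.0620) and Trav7-4 (0.73, adjusted p = 0.0761) came nearest. The TVA comparison in siNTC cells, the siCreb1 comparisons and the interaction share libraries.

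Repertoire breadth differed little between the groups. The effective number of Trbv segments was 15.8, 15.8 and 15.7 with siNTC alone, 15.7, 15.8 and 15.6 with siNTC plus TVA, 15.9, 16.1 and 16.3 in siCreb1 and 16.1, 16.3 and 16.1 in siCreb1 plus TVA. The siCreb1 libraries were above the siNTC libraries without overlap, by 0.4 segments in the mean. Trbv13-2, the leading segment, took 11.6 to 12% of Trbv reads with siNTC alone, 10.3 to 11.2% with siNTC plus TVA, 9.79 to 10.1% in siCreb1 and 9.32 to 10.3% in siCreb1 plus TVA. Trbv3 took 5.66 to 6.55% in the 6 siNTC libraries and 6.76 to 7.53% in the 6 siCreb1 libraries. The means for the effective number of Trav segments were 51.9 in siCreb1 and 51.3 in siNTC, those for Traj were 28.2 and 28.8, and both overlapped. For Traj the number describes the spread of reads, which may include unspliced transcripts, and not J choice alone.

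The distance between the usage of 2 libraries, the share of reads that would have to be moved to another segment, gives the same picture. For Trbv the median was 3.94% between libraries of the same group (2.28 to 5.94% over 12 pairs), 4.38% between TVA and DMSO libraries of the same siRNA and 5.09% between siRNAs (3.90 to 7.44% over 36 pairs). For Trav the medians were 14.7, 15.4 and 15.6%, and for Trav families 7.05, 7.69 and 7.75%. The ranges within and between groups overlapped in each case.

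Some Trav had many reads in some cultures and almost none in others. Of all members 14 had at least 20 reads in 1 library and at most 3 in another. All 14 were Trav, 11 had fewer than 50% unique windows, 8 had none and 7 were identical to another segment. The other 3, Trav6-2, Trav6-4 and Trav6d-4, had 81.8, 74.2 and 75.4% unique windows. Trav9n-3 and its identical copy, and Trav6n-7 and Trav6-6, whose last 45 bases are the same, are shown as examples, with Trav9n-3 ending at chr14:53232058-53232102, Trav9d-3 at chr14:52921068-52921112, Trav6n-7 at chr14:53319240-53319284 and Trav6-6 at chr14:53517322-53517366.
Trav9n-3: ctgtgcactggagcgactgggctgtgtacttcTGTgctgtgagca
Trav9d-3: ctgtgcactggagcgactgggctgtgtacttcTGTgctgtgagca
Trav6n-7: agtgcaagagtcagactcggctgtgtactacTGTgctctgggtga
Trav6-6: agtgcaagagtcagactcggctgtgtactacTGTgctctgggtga

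Trav9n-3 had 87, 55 and 46 reads with siNTC alone, 68, 32 and 62 with siNTC plus TVA, 0, 1 and 3 in siCreb1 and 3, 71 and 56 in siCreb1 plus TVA. Trav9d-3 had 0 reads in every library. All Trav9 segments together had 358, 267 and 313 reads with siNTC alone, 294, 264 and 290 with siNTC plus TVA, 295, 323 and 332 in siCreb1 and 323, 368 and 340 in siCreb1 plus TVA. These are reads not scaled to depth, and the sums of the 4 groups overlapped. The sum of the identical copies, Trav9n-3 plus Trav9d-3, equals the reads of Trav9n-3 and so was 0 to 3 in siCreb1 against 46 to 87 with siNTC alone.

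Trav6n-7, identical to Trav6d-7, had 80 and 114 reads in siNTC replicates 2 and 3, 89 in siCreb1 replicate 3 and 0 in the other 9 libraries. Trav6-6, identical to Trav6d-6, had 96 reads in siNTC replicate 3, 143 in siCreb1 plus TVA replicate 2 and 0 to 5 in the other 10. Sums over the copies moved as well, from 14 to 125 reads between libraries for Trav6n-7, Trav6d-7 and Trav6-7-dv9, and from 22 to 190 for Trav6-6, Trav6d-6 and Trav6n-6. Trav7-6 and Trav7n-6 together had 9 to 82. The libraries with high values of Trav6n-7 came from siNTC and siCreb1, all without TVA, and those of Trav6-6 from siNTC and siCreb1 plus TVA. The variance of Trav6-6 between replicates was 49.5 times that of counting error alone, beside medians of 2.80 for Trav, 2.16 for Traj, 2.23 for Trbv and 2.03 for Trbj.

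**Figure D5:**
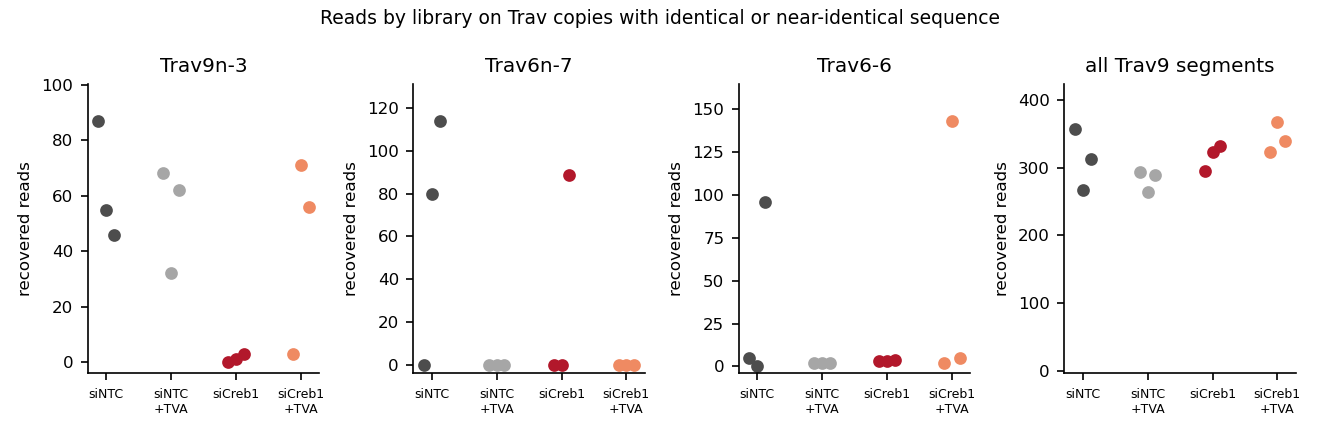
Recovered reads (y axis) in each of the 12 libraries by group (x axis) for Trav9n-3, Trav6n-7, Trav6-6 and all Trav9 segments together, 1 point per library. The first 3 switch between near 0 and up to 143 reads among libraries of 1 group, while the Trav9 sum, like them not scaled to depth, lies between 264 and 368.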

How the data were processed

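RNA-seq was measured in 12 libraries of mouse CD8+ T cells, made per the labels with an RNeasy extraction and a SMARTer mRNA-seq kit. The authors deposited FPKM values, a file per library, with gene positions, lengths and biotypes. The submitters' processing notes name GRCm38 and mm10, and the aligner, the counting program and the use of strand are not given in the sources used here. FPKM times gene length was a whole multiple of a step per library for 99.995 to 100% of the values above 0 (tolerance 0.02 reads), which gave reads per gene.

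A mean FPKM of 1 or more was required of a gene, which left 11550. Their log2(FPKM + 1) values were tested in limma 3.58.1 (R 4.3.3, eBayes with a mean-variance trend), in a fit of all 12 libraries with a coefficient per group, and p-values were Benjamini-Hochberg adjusted over these genes with a threshold of 0.05. A fold change on this scale understates that of low genes. Alternatives changed the pseudocount (0.1), the filter, the scaling, the block, the trend and the libraries, and limma-voom was run on recovered reads. Sums and breadth measures are given without p-values, although exact permutation tests had been set for 18 of them, because the members and gene lists were chosen with earlier results of these data known. The script was tested on simulated data.

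Named are the constant regions, the 5 most read segments of Trav, Traj, Trbv and Trbj, Trd and Trg segments with at least 10 reads on average, every member called, the 3 largest rises and falls of the TVA comparisons, the NKT, MAIT and OT-I segments, and fixed marker lists. The largest rises and falls had been set for every comparison, but for the knockdown comparisons and the interaction not all are given. Trbv3 shares, Trbv13-1 and the examples of identical copies were chosen after their values were seen, as were the Traj stretches. Sequences and unique 50-base windows come from GENCODE vM21 transcripts. Figures were drawn with matplotlib 3.10.9.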

Additional observations from a re-analysis of the deposited data

How the results depend on the processing

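Members called after knockdown without TVA numbered 13, and 8 with all genes above 0 tested and 7 with limma-voom on those genes. With TVA there were 15, against 8 with all genes above 0, 8 with limma-voom and 6 with limma-voom on all genes above 0. For TVA in siNTC cells there were 3, against 1 with limma-voom, Trbc2, which is none of the 3, and 0 with limma-voom on all genes above 0, a setting chosen after seeing the data. For the interaction 0 were called, against 1 with a mean FPKM of at least 5 and 1 with a replicate block. The labels do not say whether the replicate numbers pair the libraries, and the numbers were used only in the replicate block. Same-numbered libraries had correlations of −0.0593 to 0.0595 between their deviations over 18 pairs. Such values cannot decide it, since a small shared effect may be lost in the spread. Without 1 library the counts ran from 1 (without siNTC plus TVA replicate 2) to 5 (without siNTC replicate 1) for TVA in siNTC cells, from 0 to 1 for TVA in siCreb1 cells, from 9 to 15 for knockdown without TVA, from 8 (without siCreb1 plus TVA replicate 1 or 2) to 16 with TVA, and from 0 to 2 for the interaction. Trac without TVA changed by 0.000917 after quantile normalization.

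Sums of FPKM, which weight short segments more by construction, gave differences of −114 for all segments, 75.2 for Tra, −197 for Trb and 6.26 for Trg between siCreb1 and siNTC, and of −286 for all segments, −216 for Trb, 0.0180 for Trd and 2.92 for Trg between TVA and no TVA. The sign for Tra is opposite to that of RPM, 646 in siCreb1 and 659 in siNTC. Effective numbers on thinned reads differed by −0.0216 for Traj with TVA, and those of families by −0.0535 for Trav between siRNAs, 0.140 for Trav with TVA and −0.0241 for Trbv with TVA.

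Leaving out 1 library, the difference in RPM between siCreb1 and siNTC was −14.7 to −9.73 for Tra, −186 to −156 for Trb, −0.184 to 0.357 for Trd and 4.50 to 6.20 for Trg. Between TVA and no TVA it was −112 to −81.5 for Trb, 1.52 to 2.07 for Trd and 4.04 to 5.81 for Trg. The effective number with TVA differed by −0.0524 to 0.0578 for Trbv and −0.530 to 0.913 for Traj, and the Trbc1 share of Trbc reads between siRNAs by −0.839 to 0.0813 percentage points. For Trbv between siRNAs it stayed between 0.323 and 0.433. Single calls kept their side of the threshold in 227 of 306 alternatives and in 281 of 372 fits without 1 library. Segments with few reads, such as most Traj and the Trdv and Trdj segments, are limited by depth.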
